A study of Homo sapiens with 6 samples.

Results

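The autophagy and lysosome genes described here are 40 genes picked by symbol, out of 16330 genes with summed counts, and they cover the machinery that builds an autophagosome, the receptors that load it and the lysosome that digests its cargo. They were measured by RNA sequencing in HN12, an established line of human squamous carcinoma from the head and neck, grown in DMEM with serum. The 3 Control libraries came from HN12 cells given the solvent DMSO for 24 h, and the 3 CPI-613 libraries from HN12 cells given CPI-613 for 24 h. CPI-613, also called devimistat, resembles lipoate and acts on the lipoate-dependent dehydrogenase complexes that feed and run the TCA cycle, and its dose is not given in the sources used here. No genetic change separates the groups, a single cell line stands for the tumour, and nothing says whether the libraries of a group came from separate cultures, so the p-values reflect library-to-library spread, and that spread may be technical. In bulk RNA, a change in RNA per cell and a change in the number of cells holding it cannot be told apart.

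Autophagy delivers cytoplasm and organelles to the lysosome in a double membrane. The ULK1 kinase complex and the phosphatidylinositol 3-phosphate (PI3P) lipid kinase complex start the membrane, a ubiquitin-like conjugation system attaches proteins of the ATG8 family to it, and receptors such as SQSTM1 bind those proteins and bring in cargo. The lysosome, acidified by the V-ATPase proton pump, degrades the content, and the transcription factors TFEB and TFE3 are known for switching on many genes of both compartments.

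Libraries held between 11531949 and 15486514 assigned counts, and the 40 genes took 0.710% to 0.921% of them. All 40 passed the filter on low counts, from 86 counts (ATG5 in CPI-613 replicate 3) to 31061 in a library. All 10 squamous epithelial markers listed for the check reached 1 CPM (counts scaled to library size by the TMM method), with summed levels of 7225 to 10478 CPM in Control and 4322 to 11024 CPM in CPI-613, so the markers of the labelled cell type were present. Fibroblast markers summed to 35.6 to 41.9 CPM in Control and 31.02 to 41.4 CPM in CPI-613, most of it COL1A1, with COL3A1 and PDGFRA at or below 0.229 CPM. Macrophage markers summed to 3.76 to 5.50 CPM in Control and 1.997 to 3.08 CPM in CPI-613, endothelial markers to 1.30 to 2.74 and 0.214 to 0.615 CPM, and PTPRC, which marks leukocytes, stayed at or below 0.155 CPM. Any part of such cells in the results was not tested. The 3 libraries of a group differed from each other in a way that followed the GC content of transcripts, mainly in CPI-613, and this is taken up after the gene groups because it touches many of these values.

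CPI-613 libraries held more RNA of 4 of the 40 genes, each 2.6-fold to 3.0-fold over Control: MAP1LC3B, an ATG8 protein, SQSTM1, a cargo receptor, WIPI1, a PI3P reader, and NPC1, the lysosomal cholesterol exporter. They belong to 4 different roles. The other 36, which include all neighbours of the 4 in the same step, did not pass the test. Some of these neighbours scattered widely between the CPI-613 libraries, so not passing does not show an unchanged level. In edgeR's quasi-likelihood test with Benjamini-Hochberg adjustment over 12671 genes at 0.05, 4 members were called higher, which is 10% of them against 1.94% of all genes tested, and 0 were called lower against 1.24% of all genes. Before adjustment, at p under 0.05, 10 members were higher and 1 lower, or 25% and 2.5%, where 8.45% and 5.93% of all genes were, and DESeq2 called 6 higher (15%, against 3.88% of all genes) and 0 lower (against 3.17%). Every CPI-613 library lay above every Control library for 10 members and below for 1, against 11.8% and 9.17% of all genes. The median log2 fold change of the members was 0.17, beside 0.02 for all genes tested. Scaling by library size alone moved these medians to -0.02 and -0.17, so the members sat above the median gene by a like amount under either scaling. The members were chosen with earlier results of these data known. These shares and medians, here and with the offsets below, are therefore a description of the list.

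**Figure D1:**
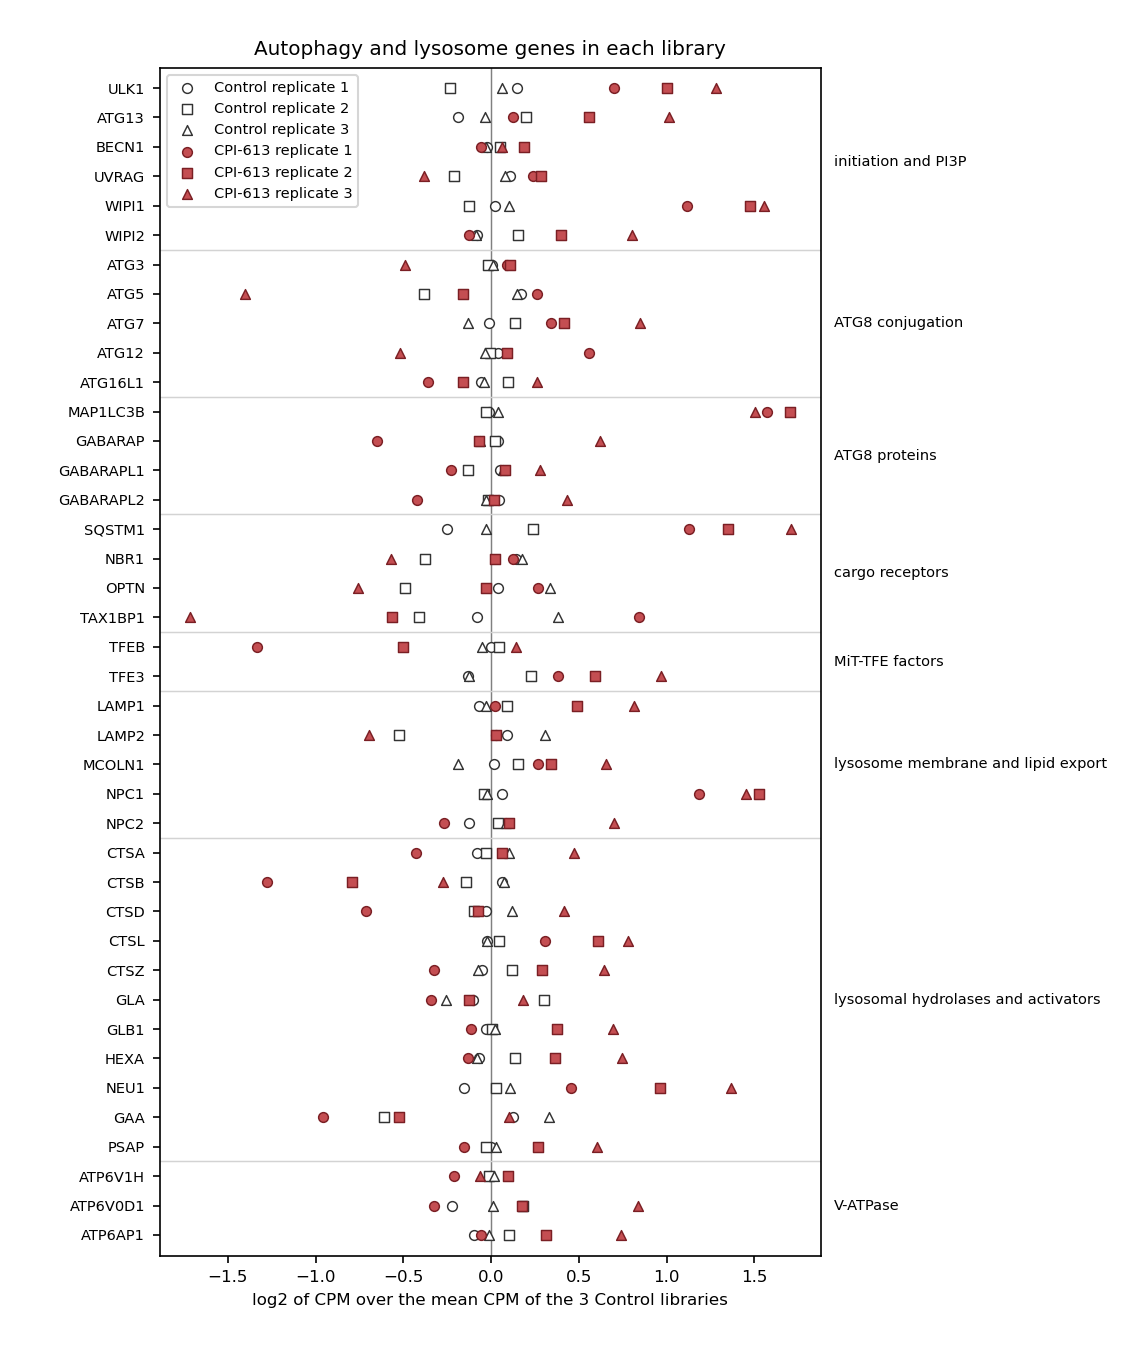
Level of each of the 40 genes in each library, as log2 of CPM over the mean CPM of the 3 Control libraries (x axis), with open symbols for Control, filled symbols for CPI-613 and genes ordered by role. WIPI1, MAP1LC3B, SQSTM1 and NPC1 have every filled symbol far to the right of the open ones, whereas TAX1BP1, ATG5, GABARAP and CTSD have filled symbols on either side of 0.

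The upstream stretches of several lysosomal members hold the short palindrome that TFEB and TFE3 are known to bind, and they are shown because the same genes are described below. RefSeq promoters of GRCh38.p14 were matched for 34 of the 40 members. TCACGTGA occurred in 6 of those 34 (17.6%), in 1.97% of the 10379 promoters of tested genes and in 1.04% of all 27305 promoters, on either strand. The 6 were ATG3, LAMP1, MCOLN1, CTSA, GAA and ATP6V0D1. In ATG3 it began at base 5 after the start site and not upstream, so no stretch is printed for that gene. MCOLN1 held it upstream at -42 and -15 and GAA at -77 and -32. The capitals mark TCACGTGA in a single stretch per gene upstream of the start site, printed 5′ to 3′ on the gene's strand:
LAMP1, chr13:113297190-113297237, + strand: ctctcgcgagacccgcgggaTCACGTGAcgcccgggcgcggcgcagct
MCOLN1, chr19:7522562-7522609, + strand: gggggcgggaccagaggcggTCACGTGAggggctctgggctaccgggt
CTSA, chr20:45891289-45891334, + strand: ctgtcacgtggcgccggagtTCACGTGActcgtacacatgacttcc
GAA, chr17:80101529-80101576, + strand: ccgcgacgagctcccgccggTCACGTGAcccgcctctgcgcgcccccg
ATP6V0D1, chr16:67481190-67481237, - strand: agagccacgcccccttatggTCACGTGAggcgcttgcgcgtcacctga
None of these 6 genes was called by edgeR, where 1.94% of all genes were called higher and 1.24% lower. An unadjusted p under 0.05 was reached by 0 of the 6 (8.45% and 5.93% of all genes). None of the 4 called genes held TCACGTGA, which 1.97% of the promoters of tested genes did. The shorter E-box CACGTG, which lies inside TCACGTGA, added CTSD and NEU1, for 8 of 34 (23.5%) against 10.2% of tested genes. TGACNNNGC, the core of the antioxidant response element, occurred in 9 of 34 (26.5%) against 14.9%, and of the 4 called genes MAP1LC3B held it, marked in capitals here:
MAP1LC3B, chr16:87392270-87392318, + strand: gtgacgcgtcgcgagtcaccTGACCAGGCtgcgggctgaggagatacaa
TGATGCAA, the element shared by CEBP and ATF factors, was in 0 of the 34 and in 0.520% of tested genes. Only a short window around the start site was searched. An element farther upstream or within the gene would have been missed, so a gene without a match may still hold one. A match is a description of letters in this window and says nothing of binding.

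Among the 6 genes that start the autophagosome, WIPI1 rose and the other 5 did not pass the test. WIPI1 (chromosome 17, 68421281 to 68457496 on hg38) binds PI3P on the forming membrane. It stood at 14.9, 13.4 and 15.7 CPM in Control replicates 1, 2 and 3 and at 31.8, 40.8 and 43.1 CPM in the CPI-613 replicates. The groups did not overlap, with 14.7 ± 1.16 against 38.6 ± 5.97 CPM (SD, n = 3 each), a log2 fold change of 1.39 (SE 0.23, edgeR adjusted p = 0.0255). WIPI1 shares 30739 bases of its locus with ARSG, a lysosomal sulfatase gene that was itself called higher (4.49 to 12.5 CPM, log2 fold change 1.48, SE 0.24, edgeR adjusted p = 0.0236). PRKAR1A, a kinase subunit gene, overlaps WIPI1 over 36216 bases and was level at 227 CPM in each group. Whether the counting used strand is not given in the sources used here, and which gene the shared reads came from was not tested.

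WIPI2, its close relative and the reader that recruits the conjugation machinery, had 129 ± 12.5 CPM in Control and 171 ± 53.6 CPM in CPI-613, with overlapping groups. ULK1, the kinase that triggers initiation, measured 93.0, 71.3 and 87.6 CPM in Control and 137, 168 and 204 CPM in CPI-613. Every CPI-613 library was above every Control library, yet the log2 fold change of 1.01 (SE 0.21) missed the edgeR threshold with an adjusted p of 0.0573, while DESeq2 gave an adjusted p of 0.00234. ATG13, the adaptor of the ULK1 complex, was at 97.1, 127 and 108 CPM in Control and 121, 163 and 223 CPM in CPI-613, overlapping in 1 library of each group (log2 fold change 0.61, SE 0.26, edgeR adjusted p = 0.342). BECN1, the scaffold of the PI3P kinase complex and the most abundant of the 6 per length, was nearly level at 76.3, 80.4 and 76.2 CPM in Control and 74.5, 88.3 and 81.0 CPM in CPI-613. UVRAG, its partner in a second form of that complex, had 27.1 ± 3.23 and 28.6 ± 6.77 CPM.

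None of the 5 conjugation genes was called by edgeR (1.94% of all genes were higher and 1.24% lower) or by DESeq2 (3.88% and 3.17%). At an unadjusted p under 0.05 in edgeR 1 of the 5, ATG7, was higher, where 8.45% of all genes were. The median log2 fold change of the 5 was -0.06, against -0.24 with library size alone and 0.29 with the GC and length offsets described further on. The group thus had no settled direction. ATG7, the E1-like enzyme that activates ATG12 and the ATG8 proteins, was at 24.1, 26.7 and 22.1 CPM in Control and 30.8, 32.4 and 43.7 CPM in CPI-613. The groups did not overlap, and the log2 fold change was 0.55 (SE 0.23, edgeR adjusted p = 0.339). ATG3, the E2-like enzyme for ATG8 proteins and the most abundant of the 5 per length, lay within 43.1 to 44.0 CPM in Control and at 46.5, 47.0 and 31.1 CPM in CPI-613. Its spread came from CPI-613 replicate 3, the lowest library. ATG5, which is joined to ATG12, showed the same library as lowest, with 19.8, 13.5 and 19.5 CPM in Control and 21.0, 15.8 and 6.66 CPM in CPI-613. ATG12 had 96.4 ± 2.51 and 104 ± 37.5 CPM (log2 fold change 0.11, or 0.59 with the offsets, called in neither fit), and ATG16L1, which places the conjugate on the membrane, 39.5 ± 2.33 and 37.8 ± 8.54 CPM.

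Of the 4 ATG8 proteins, MAP1LC3B rose and the 3 GABARAP genes did not pass the test. MAP1LC3B (chromosome 16, 87392336 to 87404774) encodes LC3B, the protein whose lipid-bound form is the usual marker of autophagosomes. Its Control libraries held 67.5, 66.8 and 70.0 CPM and its CPI-613 libraries 202, 222 and 193 CPM. The 6 values fell into narrow groups of 68.1 ± 1.71 and 206 ± 14.7 CPM, 3.02-fold apart (log2 fold change 1.60, SE 0.16, edgeR adjusted p = 0.00720). GABARAP, the most abundant of the family per length, was at 128, 126 and 119 CPM in Control and 79.0, 118 and 191 CPM in CPI-613, so its CPI-613 libraries lay below, beside and above the Controls. GABARAPL1 had 81.8 ± 6.20 and 85.3 ± 14.8 CPM and GABARAPL2 43.3 ± 1.27 and 44.9 ± 13.1 CPM, and the sign of all 3 GABARAP genes turned between settings. MAP1LC3B2, a near-identical copy of MAP1LC3B on chromosome 12 whose reads the counting could have taken from it, held 2, 7 and 3 counts in Control and 13, 25 and 21 counts in CPI-613, against 860 to 2887 counts of MAP1LC3B a library. Its log2 fold change was 2.23, higher at an unadjusted p under 0.05 in edgeR but not called. With the GC and length offsets described further on it was 2.13 and called. Whether these few counts came from MAP1LC3B was not tested.

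SQSTM1 was the member of the 4 cargo receptors that rose, and the other 3 receptors each had a log2 fold change of -0.11 with adjusted p-values in edgeR of at least 0.882. SQSTM1 (chromosome 5, 179806393 to 179838078) encodes p62, which binds ubiquitinated cargo and LC3 and is itself degraded by autophagy. It measured 480, 672 and 560 CPM in Control and 1249, 1454 and 1864 CPM in CPI-613. The lowest CPI-613 library was above the highest Control library, with a log2 fold change of 1.42 (SE 0.23, edgeR adjusted p = 0.0256). In FPKM, which scales fragments to transcript length and library size, SQSTM1 went from 234 ± 30.8 to 539 ± 50.6. It was below CTSD in each Control library (204 to 266 against 427 to 521 FPKM) and above CTSD in each CPI-613 library (500.4 to 596 against 283 to 495 FPKM). Part of the SQSTM1 count rests on reads shared over 3 identical transcript records at a second placement, which were summed with the gene. The coding genes that overlap its locus, MGAT4B and MRNIP, were not called (edgeR adjusted p = 0.508 and 0.772).

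NBR1, a receptor with the same domain plan as p62, had 102 ± 20.3 and 94.4 ± 22.7 CPM. OPTN, a receptor for damaged mitochondria, had 53.0 ± 14.6 and 49.1 ± 16.5 CPM. TAX1BP1, which links ubiquitinated cargo to the membrane, was the most scattered member: 66.9, 53.2 and 92.4 CPM in Control and 127, 47.8 and 21.5 CPM in CPI-613. Its CPI-613 replicate 1 was the highest and replicate 3 the lowest of all 6 libraries, so no direction can be read.

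Neither of the paired regulators was called by edgeR (1.94% of all genes were higher and 1.24% lower) or by DESeq2 (3.88% and 3.17%). TFE3 was higher at an unadjusted p under 0.05 in edgeR, where 8.45% of all genes were. TFE3 was at 44.3, 56.8 and 44.5 CPM in Control and 63.1, 73.0 and 94.8 CPM in CPI-613, without overlap (log2 fold change 0.67, SE 0.23, edgeR adjusted p = 0.223). TFEB was at 16.7, 17.2 and 16.1 CPM in Control and 6.63, 11.8 and 18.4 CPM in CPI-613, with CPI-613 replicate 3 above every Control library (log2 fold change -0.44, SE 0.38, edgeR adjusted p = 0.717). With the GC and length offsets described further on, adjusted values of TFEB were 18.4, 16.2 and 18.2 CPM in Control and 8.02, 11.6 and 13.4 CPM in CPI-613. The groups then did not overlap, but TFEB was still not called (log2 fold change -0.67, SE 0.21, edgeR adjusted p = 0.0841). The sign of its fold change held in all 25 alternatives. Activity of these factors depends on their place in the cell, which RNA levels do not measure.

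At the lysosomal membrane, NPC1 rose and 4 others did not pass the test. NPC1 (chromosome 18, 23506184 to 23586506) exports cholesterol from the lysosome together with NPC2, the soluble carrier that hands cholesterol to it. NPC1 measured 169, 157 and 159 CPM in Control and 367, 465 and 443 CPM in CPI-613. The groups were far apart (log2 fold change 1.40, SE 0.17, edgeR adjusted p = 0.0111), and RMC1, whose locus overlaps it, was not called (33.0 to 43.2 CPM). NPC2 was not called, with 88.8 ± 6.71 and 105 ± 36.2 CPM (log2 fold change 0.24, SE 0.27, edgeR adjusted p = 0.782). LAMP1, the main glycoprotein of the membrane and the most abundant of the 5 per length, was at 533, 594 and 548 CPM in Control and 567, 785 and 983 CPM in CPI-613 (log2 fold change 0.48, SE 0.23, edgeR adjusted p = 0.430). LAMP2, its relative that takes part in fusion and in chaperone-mediated autophagy, was at 171, 111 and 198 CPM in Control and 163, 163 and 98.9 CPM in CPI-613. MCOLN1, the calcium channel of the lysosome, had 15.5 ± 1.83 and 20.9 ± 3.07 CPM without overlap of the groups (log2 fold change 0.43, SE 0.24, edgeR adjusted p = 0.516).

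The 11 genes of lysosomal hydrolases and activators, PSAP included, gave 0 calls in edgeR in either direction (1.94% of all genes were higher and 1.24% lower). Before adjustment 2 were higher and 1 lower at p under 0.05 (8.45% and 5.93% of all genes). DESeq2 called 1 higher and 0 lower (3.88% and 3.17% of all genes). In 2 of the 11 every CPI-613 library was above every Control library and in 1 of the 11 below, where 11.8% and 9.17% of all genes were. CTSB, a cysteine protease (cathepsin B), was at 678, 588 and 682 CPM in Control and 268, 375 and 537 CPM in CPI-613. Every CPI-613 library was below every Control library, with a log2 fold change of -0.72 (SE 0.27, edgeR adjusted p = 0.270). CTSL, the related cathepsin L, was at 134, 140 and 134 CPM in Control and 168, 207 and 234 CPM in CPI-613, all higher (log2 fold change 0.58, SE 0.18, edgeR adjusted p = 0.181). NEU1, the sialidase, was at 38.7, 44.0 and 46.4 CPM in Control and 59.0, 83.9 and 111 CPM in CPI-613, also without overlap (log2 fold change 0.98, SE 0.26, edgeR adjusted p = 0.121, DESeq2 adjusted p = 0.0242).

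The remaining hydrolases and PSAP stayed within overlapping groups. PSAP, the precursor of the saposins that present lipids to hydrolases and the most abundant of the 40 genes per length (674 ± 34.8 FPKM in Control), was at 1584, 1550 and 1615 CPM in Control and 1424, 1905 and 2406 CPM in CPI-613. CTSD, the aspartic protease cathepsin D, had 809 ± 63.8 and 780 ± 294 CPM. CTSA, which also protects NEU1, had 101 ± 6.52 and 107 ± 32.4 CPM, and CTSZ, a carboxypeptidase, 144 ± 10.9 and 173 ± 55.2 CPM. Of the glycosidases, GLB1 (beta-galactosidase) had 76.8 ± 1.33 and 98.3 ± 26.6 CPM, HEXA (a hexosaminidase subunit) 149 ± 13.0 and 192 ± 56.7 CPM, GLA (alpha-galactosidase) 47.7 ± 9.83 and 45.1 ± 8.27 CPM, and GAA, which degrades glycogen, 42.3 ± 13.1 and 32.2 ± 12.0 CPM.

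The 3 V-ATPase genes were not called by edgeR (1.94% of all genes were higher and 1.24% lower) or by DESeq2 (3.88% and 3.17%). An unadjusted p under 0.05 in edgeR was reached by 0 of the 3 (8.45% and 5.93% of all genes). ATP6AP1, an accessory subunit and the most abundant of the 3 per length, was at 185, 212 and 196 CPM in Control and 190, 245 and 330 CPM in CPI-613. ATP6V0D1, of the membrane sector, had 74.6 ± 10.3 and 92.3 ± 37.5 CPM. ATP6V1H, of the cytosolic sector, was the steadiest of the 3, with 63.5 ± 0.716 and 61.1 ± 6.46 CPM.

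**Figure D2:**
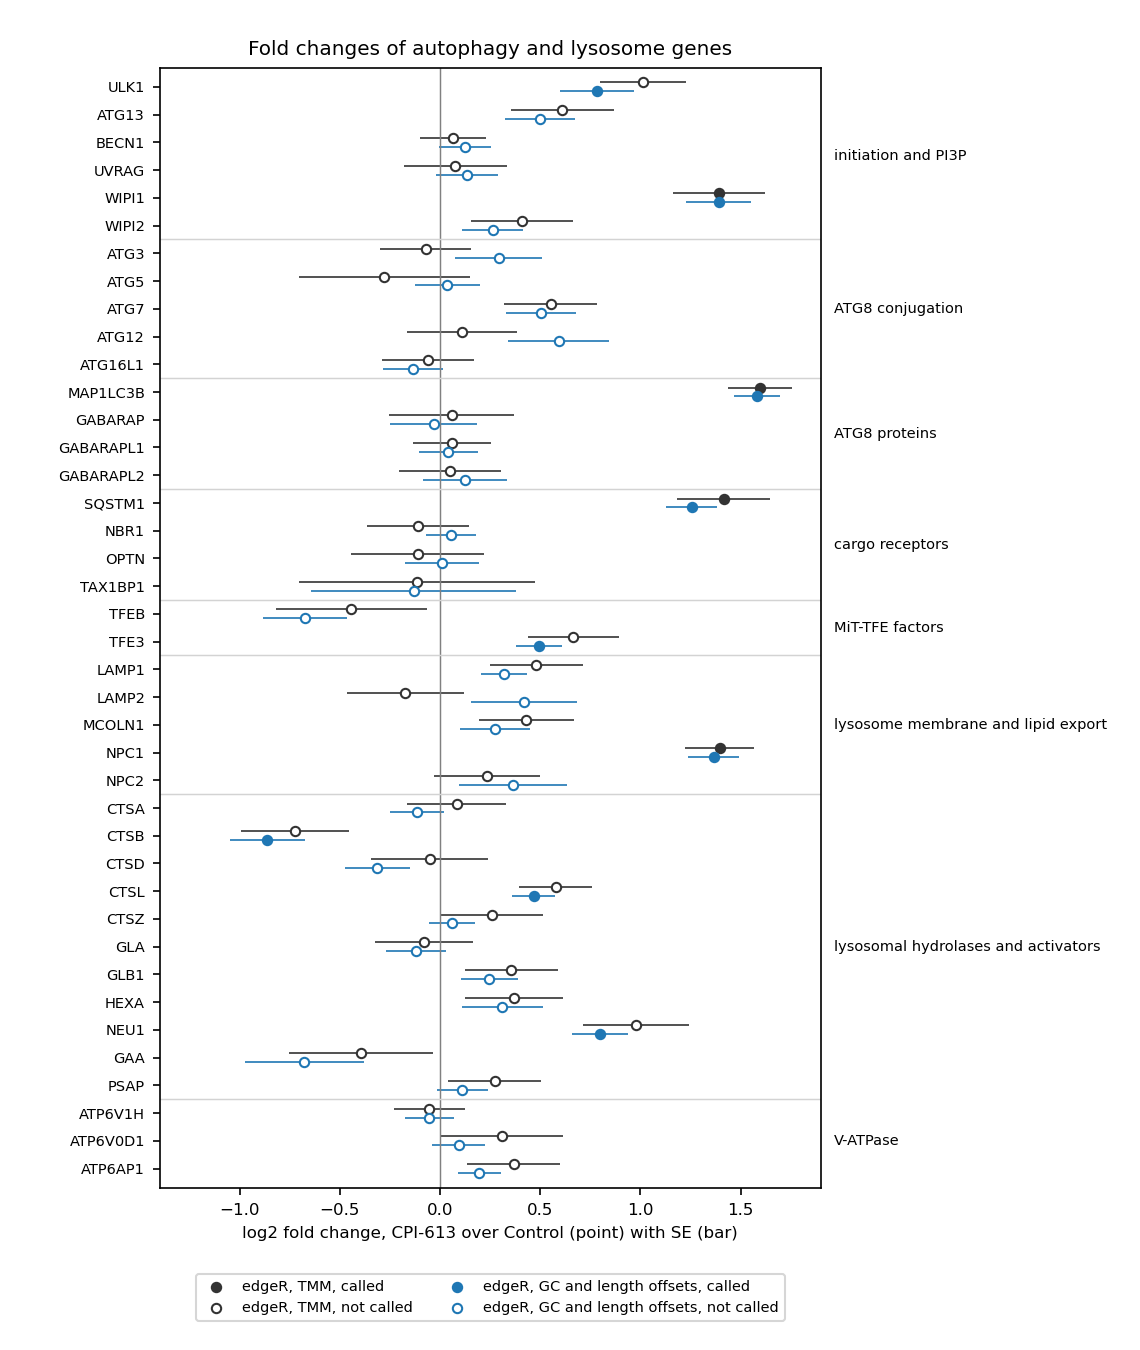
Log2 fold change of CPI-613 over Control with its SE for each of the 40 genes, from edgeR with TMM scaling (dark) and from edgeR with offsets for GC content and length (blue); filled points are called at an adjusted p under 0.05. The 4 dark filled points sit between 1.39 and 1.60, and the blue fit adds ULK1, TFE3, CTSL and NEU1 above 0 and CTSB below 0.

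The calls of the 4 genes without GC correction were not held under every alternative. Without Control replicate 1, without Control replicate 3 or without CPI-613 replicate 2, edgeR called 0 of the 40 members (6 higher at an unadjusted p under 0.05 in each), along with 0, 0 and 7 genes of all those tested. Over all 25 alternatives the log2 fold change stayed between 1.10 and 1.52 for WIPI1, 1.37 and 1.64 for MAP1LC3B, 1.16 and 1.54 for SQSTM1 and 1.17 and 1.50 for NPC1, and the highest adjusted p was 0.181 for WIPI1 and SQSTM1, 0.0808 for MAP1LC3B and 0.1003 for NPC1. WIPI1 also lost its call without Control replicate 2 (edgeR adjusted p = 0.0715). A threshold of 0.01 left MAP1LC3B as the single call among the members.

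The scatter of many members within the CPI-613 group followed GC content. Between CPI-613 replicates 3 and 1, the log2 difference in CPM correlated with the GC content of the longest protein-coding transcript with Pearson's r of 0.64 and Spearman's rho of 0.63 across the 40 members, as a description over genes of the same pair of libraries, where it was 0.76 and 0.79 over 12561 genes. All 13 members with the highest GC content were higher in replicate 3, by a median of 1.87-fold. Among the 13 with the lowest GC content 8 were lower in replicate 3, and their median ratio was 0.65. ATG5, ATG12, ATG3 and LAMP2, with GC contents of 37.5% to 39.9%, were all lower in replicate 3, whereas CTSD, GAA and TFEB were each more than 2-fold higher there. MAP1LC3B, at 48.7% GC, differed by 0.95-fold between this pair of libraries and NPC1 by 1.20-fold. TAX1BP1, at 48.0% GC, fell outside the pattern with 0.17-fold, the largest difference of the 40. Others departed from it upwards. Of the 13 with the lowest GC content 5 were higher in replicate 3, among them NPC2 (44.3% GC, 1.96-fold) and GABARAPL2 (44.6% GC, 1.81-fold). GABARAP, at 49.8% GC, was 2.41-fold higher there.

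**Figure D3:**
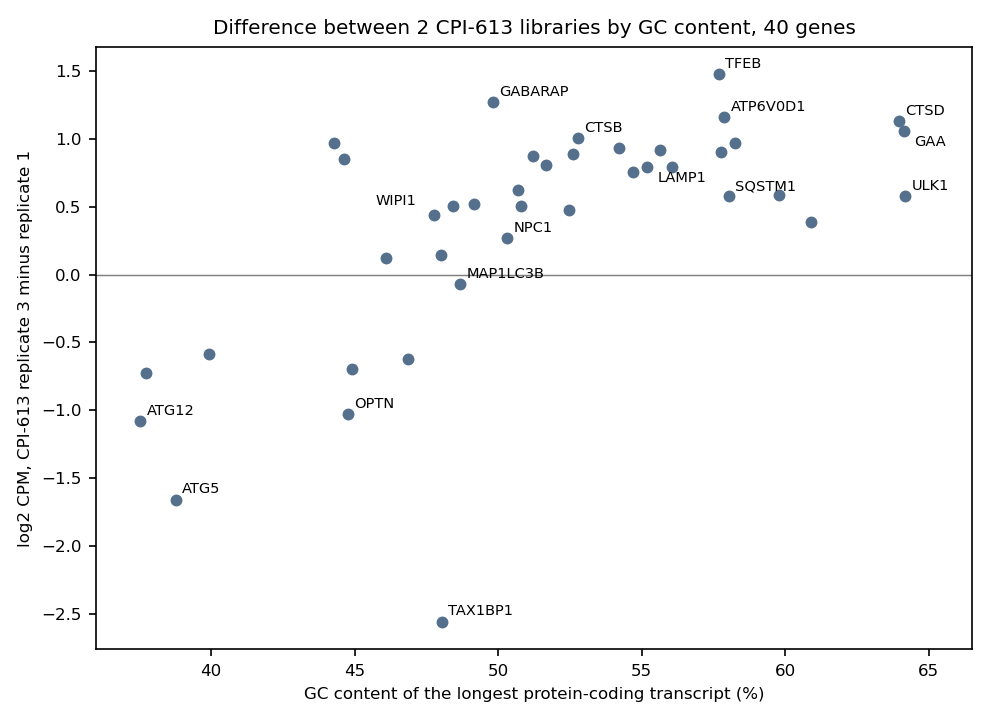
Difference in log2 CPM between CPI-613 replicate 3 and replicate 1 (y axis) against the GC content of the longest protein-coding transcript in % (x axis), 1 point per member. Points rise from left to right, all 13 members of highest GC content lie above 0, and TAX1BP1 lies alone at -2.56.

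With offsets for GC content and length in edgeR, 8 members were called higher, which is 20% of them against 6.31% of all genes tested, and 1 lower, 2.5% against 5.02% of all genes. The 4 genes above were among the 8, and each was called in all 6 of these fits that left out 1 library. SQSTM1 had adjusted values of 529, 634 and 636 CPM in Control and 1502, 1425 and 1365 CPM in CPI-613, so its CPI-613 libraries came closer together than before the correction (log2 fold change 1.25, SE 0.13, edgeR adjusted p = 0.00106). The offsets did not narrow every member. In CPI-613 the SD went from 37.2 to 64.8 CPM for LAMP2 and from 36.2 to 45.4 CPM for NPC2. For ATG12 the order of the CPI-613 replicates reversed, from 142, 103 and 67.2 CPM to 88.3, 122 and 160 CPM. The additional members were NEU1 (log2 fold change 0.80, SE 0.14, edgeR adjusted p = 0.0101), ULK1 (0.78, SE 0.18, edgeR adjusted p = 0.0334), TFE3 (0.50, SE 0.11, edgeR adjusted p = 0.0306) and CTSL (0.47, SE 0.11, edgeR adjusted p = 0.0285). CTSB was the member called lower (-0.86, SE 0.19, edgeR adjusted p = 0.0242). Of the 6 corrected fits that left out 1 library, NEU1 was called in 4, CTSL and CTSB in 3 each, and ULK1 and TFE3 in 2 each. LAMP2 turned from -0.17 to 0.42, ATG3 from -0.07 to 0.29 and ATG5 from -0.28 to 0.04 on the log2 scale, none of them called in either fit. The offsets were fitted to each library's deviation from the mean of all libraries. A difference between the groups that follows GC content or length is therefore taken out as well.

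Ratios of FPKM between related members, taken within a library, put the members side by side on a scale that compares genes, for 9 pairs chosen after their values were seen. MAP1LC3B stood at 0.299, 0.301 and 0.333 of GABARAP in Control and at 1.45, 1.07 and 0.573 of it in CPI-613. The CPI-613 ratios were the higher ones, and the spread in CPI-613 came mostly from GABARAP. SQSTM1 was 9.93 ± 3.86 times NBR1 in Control and 29.3 ± 14.5 times in CPI-613 (SD, n = 3 each). NPC1 over NPC2 went from 0.241 ± 0.0282 to 0.567 ± 0.141 and WIPI1 over WIPI2 from 0.288 ± 0.0479 to 0.582 ± 0.0977. TFE3 over TFEB went from 2.0 ± 0.27 to 4.78 ± 1.63, and CTSL over CTSB from 0.560 ± 0.0635 to 1.43 ± 0.264. CTSD over CTSB was the tightest in CPI-613, with 3.61, 3.98 and 3.92 against 2.28, 2.50 and 2.51 in Control. ULK1 over ATG13 overlapped between the groups (0.605 ± 0.150 and 0.799 ± 0.0839). In TFE3 over TFEB, CTSL over CTSB, CTSD over CTSB and ULK1 over ATG13, neither gene was called by edgeR without the offsets. With 3 against 3 libraries a two-sided exact permutation test cannot go below p = 0.10, so these ratios are a description and no difference between the groups is read from them.

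**Figure D4:**
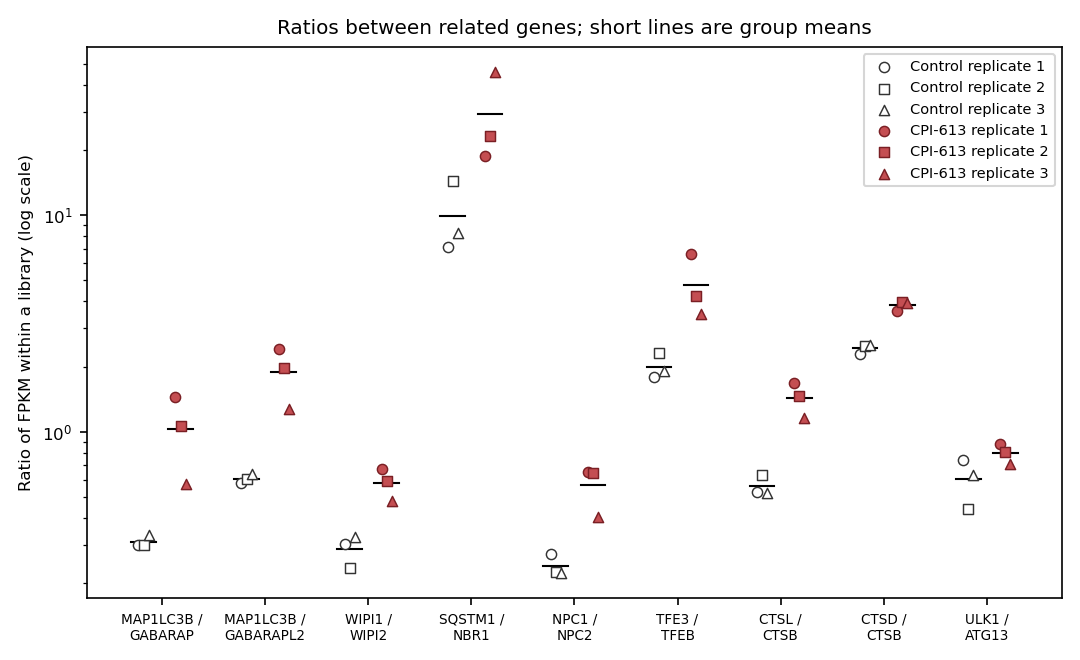
Ratio of FPKM between related members within each library on a log axis, open symbols for Control, filled symbols for CPI-613 and short lines for group means. In ULK1 over ATG13 the groups overlap, since the highest Control ratio of 0.738 exceeds the lowest CPI-613 ratio of 0.713.

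The wider pathway, 160 further symbols covering the same steps plus nutrient sensing, vesicle fusion and enzyme sorting, was read from the same fit. Of 151 tested, edgeR called 2 higher (1.32%, against 1.94% of all genes) and 0 lower (against 1.24%), while an unadjusted p under 0.05 was reached by 16 higher (10.6%, against 8.45%) and 8 lower (5.30%, against 5.93%) and DESeq2 called 5 higher and 5 lower (3.31% each, against 3.88% and 3.17%). These shares lie near those of all genes. Every CPI-613 library lay above every Control library for 25 of the 151 (16.6%) and below for 9 (5.96%). Over all genes tested these shares were 11.8% and 9.17%. No test compared the 2 lists. The median log2 fold change was 0.13, beside 0.17 for the 40 members. SESN2, a leucine sensor and stress-induced brake on mTORC1, was at 47.6, 63.0 and 42.9 CPM in Control and 231, 272 and 359 CPM in CPI-613. It had the largest log2 fold change of the called genes of either list, 2.49 (SE 0.25, edgeR adjusted p = 0.00720). IGF2R, the receptor that carries mannose-6-phosphate tagged hydrolases to the lysosome, was at 645, 646 and 643 CPM in Control and 1262, 1442 and 1391 CPM in CPI-613 (log2 fold change 1.08, SE 0.17, edgeR adjusted p = 0.0202). Neither call held without Control replicate 1, without Control replicate 3 or without CPI-613 replicate 2, with adjusted p-values in edgeR up to 0.0720 for SESN2 and 0.181 for IGF2R, and IGF2R also missed without Control replicate 2 (0.0501).

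In the 9 roles of the wider list that had no called gene, the most abundant gene of each gave the following. VMP1, which shapes the early membrane, had 274 ± 15.7 and 384 ± 97.8 CPM, and ATG4B, the protease that trims ATG8 proteins, 63.1 ± 10.1 and 71.7 ± 15.9 CPM. RAB7A, the GTPase of late endosome fusion, had 276 ± 15.9 and 296 ± 53.1 CPM, and FKBP8, a mitophagy receptor, 210.1 ± 21.5 and 238 ± 115 CPM. CD63, a lysosomal tetraspanin, had 281 ± 19.4 and 356 ± 133 CPM, and ATP6V0C, the ring subunit of the proton pump, 143 ± 20.3 and 202 ± 77.8 CPM. CTSC, a dipeptidyl peptidase, was lower in every CPI-613 library, at 440 ± 100.3 and 232 ± 54.8 CPM (log2 fold change -0.92, SE 0.26, edgeR adjusted p = 0.130). With GC and length offsets its log2 fold change was -0.01, and that fit cannot tell a GC trend of the libraries from a treatment difference that follows GC content. MITF, the third factor of the TFEB family, was barely detected, at 1.09 ± 0.416 and 1.33 ± 0.841 CPM, and MAP1LC3B2 has been given above. With GC and length offsets 12 of the 151 were called higher (7.95%, against 6.31%) and 4 lower (2.65%, against 5.02%).

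Per length, the 40 genes spanned 6.23 FPKM (UVRAG) to 674 FPKM (PSAP) in Control. After PSAP came CTSD (477 ± 47.1), LAMP1 (263 ± 7.31), SQSTM1 (234 ± 30.8) and CTSB (197 ± 22.5), and the SQSTM1 libraries overlapped both those of LAMP1 and those of CTSB. In CPI-613, SQSTM1 (539 ± 50.6) was second to PSAP (698 ± 103), and CTSB (101 ± 24.0) was at the level of MAP1LC3B (101 ± 14.6). At the low end stood UVRAG, TFEB (8.60 ± 0.404), MCOLN1 (8.98 ± 0.914), ATG5 (9.05 ± 2.19), ATG7 (9.41 ± 0.875) and WIPI1 (9.44 ± 1.03), of which WIPI1 reached 21.3 ± 1.41 in CPI-613.

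Estimated counts of single transcripts describe which forms carried the RNA, without a test. SQSTM1 came almost wholly from a single transcript in each group (95.4% ± 1.04 and 97.7% ± 0.618 of the gene, SD, n = 3 each), and the main NPC1 transcript made up 69.8% ± 6.20 in Control and 80.1% ± 2.42 in CPI-613. LAMP2 was mostly the LAMP2B form (84.0% ± 1.65 and 81.7% ± 5.61), with the LAMP2A form of chaperone-mediated autophagy at 16.0% ± 1.65 and 18.3% ± 5.65. The largest GAA transcript went from 62.8% ± 7.74 to 81.8% ± 6.14 and that of OPTN from 76.9% ± 3.89 to 64.0% ± 3.91. Splitting reads among overlapping transcripts is an estimate, and for CTSB, NEU1 and ATG16L1 the counts also include transcript records at further placements. In ATG16L1 these were 4 records, all with the same values as the first placement.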

How the data were processed

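Messenger RNA profiles of 6 HN12 libraries, 3 Control and 3 CPI-613, were used. The authors deposited estimated counts for 79031 transcripts, not normalized; 27 transcripts with a date in place of a value were left out, none of them of a member. They also deposited a matrix of gene values that fit FPKM, the unit being read from the values (single-transcript genes scaled with inverse depth within 0.587%). The submitters' processing notes name the hg38 build, HTSeq, STAR 2.5, CASAVA, DESeq2 and edgeR 3.16.5, with no role for each; annotation and strand setting: not given in the sources used here. Transcript counts of a gene were added up and rounded. Depth was 11531949 to 15486514 counts, and the number of libraries limits precision more than depth.

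edgeR 4.0.16 in R 4.3.3 (quasi-likelihood test, filterByExpr with a minimum count of 10, TMM, two-sided, Benjamini-Hochberg over all genes tested, 0.05) gave the calls, and CPM are TMM-scaled. Alternatives were DESeq2 1.42.0, limma 3.58.1 on log2(FPKM + 1) and by voom, other scalings, filters and pseudocounts, a threshold of 0.01, a replicate block, loess offsets (span 0.5) for GC content and length of the longest protein-coding GENCODE transcript, and leaving out each library. The corrected fits without each library were added after seeing the data. Scripts were tested on simulated data. The members and lists were chosen with earlier results of these data known. Named genes were members called by edgeR with or without the offsets or at an unadjusted p under 0.05, the most abundant member of each role and, of the wider list, called genes or the most abundant of a role; TFEB, LAMP2, ATG5 and TAX1BP1 were added after their values were seen. Whether same-numbered libraries were paired is not known.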

Additional observations from a re-analysis of the deposited data

How the results depend on the processing

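Of 25 alternatives, 20 members kept the sign of their fold change in all and 20 turned in some, none of the latter called in the fit as described. Genes called higher among all tested numbered 246, and 491 in DESeq2, 799 with GC and length offsets, 54 at an adjusted p of 0.01 and 0 to 1372 leaving out 1 library with or without offsets. Genes called lower numbered 157, and 402, 636, 16 and 0 to 1196 in the same settings, 259 with library size alone and 285 with FPKM unfiltered. Members called higher numbered 4, and 8 with offsets, 1 at 0.01 and 0 to 12 leaving out 1 library; members called lower numbered 0, 1 with offsets and 0 to 3 leaving out 1 library. For the wider list 2 higher became 5 in DESeq2, 12 with offsets, 1 at 0.01 and 0 to 24 leaving out 1 library, and 0 lower became 5 in DESeq2, 4 with offsets, 1 with DESeq2 size factors, upper quartile scaling or voom, 2 with library size alone or any FPKM fit and 0 to 7 leaving out 1 library. Replicate numbers came from the labels, and whether same-numbered libraries were paired is not known. Correlations of same-numbered deviations from the group mean were 0.46, -0.096 and -0.61. These deviations also follow GC content, so the correlations cannot decide it. With a replicate block 109 and 82 genes, 2 and 0 members and 1 and 0 wider genes were called higher and lower. With block and offsets the numbers were 491 and 398, 5 and 1, and 7 and 2. Under the block alone WIPI1, SQSTM1 and IGF2R lost their calls (edgeR adjusted p = 0.115, 0.0534 and 0.0975). Signs that turned on the log2 scale were BECN1 (0.07; -0.04 with upper quartile, -0.13 with library size, -0.14 in FPKM), ATG3 (-0.07; 0.29 with offsets, 0.27 with block and offsets, -0.17 to 0.48 leaving out 1 library), GABARAP (0.06; -0.07 with upper quartile, -0.18 with library size, -0.04 with voom, -0.03 with block or offsets, -0.08 with block and offsets, -0.23 and -0.24 in FPKM, -0.33 to 0.32 leaving out 1 library), LAMP2 (-0.17; 0.42, 0.35 with block and offsets, -0.38 to 0.67 leaving out 1 library), ATG5 (-0.28; 0.04, 0.03 with block and offsets, -0.64 to 0.11 leaving out 1 library) and TAX1BP1 (-0.11; -1.02 to 0.31 leaving out 1 library). The cause was not tested. Where 1 library is left out of 3, the smaller group rests on 2 libraries.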

Other observations

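Among the 12 cathepsin genes measured, a family singled out after its values were seen, 6 were lower in every CPI-613 library than in every Control library and 1 was higher, where 9.17% and 11.8% of all genes tested were. edgeR called 0 of them, with 6 lower and 1 higher at an unadjusted p under 0.05 (5.93% and 8.45% of all genes), and since the family was picked for these values the counts are a description. CTSH, an aminopeptidase, had 44.8 ± 4.43 CPM in Control and 15.9 ± 5.43 CPM in CPI-613 (SD, n = 3 each, log2 fold change -1.50, SE 0.31, edgeR adjusted p = 0.0521). CTSS had 33.4 ± 6.01 and 18.9 ± 3.04 CPM and CTSV 31.2 ± 4.59 and 16.7 ± 2.56 CPM, with edgeR adjusted p-values of 0.167 and 0.117. With GC and length offsets, edgeR called CTSB, CTSF and CTSH lower and CTSL higher (5.02% and 6.31% of all genes). CTSF was barely detected, at 1.50 ± 0.222 CPM in Control and 0.535 ± 0.478 CPM in CPI-613. With the offsets, the log2 fold changes of CTSC, CTSS and CTSV were -0.01, -0.18 and -0.45. The offsets also take out a treatment difference that follows GC content or length, so the 2 cannot be told apart.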
